A study of Bos taurus with 6 samples.

Results

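The genes described here are 10 regulators of the decision to enter the cell cycle: the inhibitors of cyclin-dependent kinases CDKN1A, CDKN1B, CDKN1C, CDKN2A, CDKN2B and CDKN2C, the D cyclins CCND1, CCND2 and CCND3, and RB1. They were chosen by symbol in the platform annotation, and each of the 10 had a single probe set among those that represent 18010 genes. Microarrays gave their mRNA levels in fibroblasts grown from the stroma of the bovine ovary, the connective tissue around the follicles. The study held 3 samples of stromal cells from ovarian tumor and 3 from normal ovary, all grown in the same medium (DMEM/F12 with FKS) and left untreated. The labels did not name the tumor type, the breed or age of the animals, or the passage of the cells. Nor did they say whether each sample was an animal or a culture of its own, so a p-value here reflects only the spread among these 6 samples, part or all of which may be technical. In such bulk cultures, fewer cells that use a gene and less of its RNA per cell cannot be told apart.

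D cyclins bind the kinases CDK4 and CDK6 in early G1, the growth phase before DNA is copied, and the active kinases phosphorylate the retinoblastoma protein encoded by RB1. Phosphorylated RB1 releases E2F transcription factors, which switch on genes of DNA replication. INK4 proteins, encoded by CDKN2A, CDKN2B and CDKN2C, bind CDK4 and CDK6 and keep D cyclins away from them, while CIP/KIP proteins, encoded by CDKN1A, CDKN1B and CDKN1C, bind complexes of cyclins and kinases and act most strongly on CDK2. Both CDKN1A and CDKN2A are known for their part in lasting growth arrest of cultured fibroblasts.

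In tumor stromal cells CCND2 and CDKN1A were higher, and the 3 INK4 genes CDKN2A, CDKN2B and CDKN2C were lower, than in normal stromal cells. CCND2 differed 3.53-fold and CDKN1A 2.78-fold, while tumor levels of CDKN2A, CDKN2B and CDKN2C were 0.531, 0.519 and 0.468 of the normal levels. CCND1 was low in tumor samples 1 and 2 but not in tumor 3, and it did not pass the test, nor did CDKN1B, CDKN1C, CCND3 or RB1. So 5 of 10 genes were called, with an adjusted p under 0.05 (limma, Benjamini-Hochberg over all genes), as were 18% of the 18010 genes. By direction, 2 were higher, against 8.56% of all genes, and 3 were lower, against 9.44%. In 6 of the 10 the groups did not overlap, as in 35.7% of all genes. The median log2 difference of the 10 genes was -0.06, beside 0.02 over all genes. All values are log2 expression on the authors' RMA scale, on which 1 unit is a 2-fold difference, and every gene of the 10 was above 3.54 in all 6 samples. That level is the 95th percentile of group means over 717 probe sets for olfactory receptors, which fibroblasts are not known to use, and it serves as a guide to background. Tumor levels of CDKN2B lay close above this guide, so its ratio of 0.519 is uncertain.

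**Figure D1:**
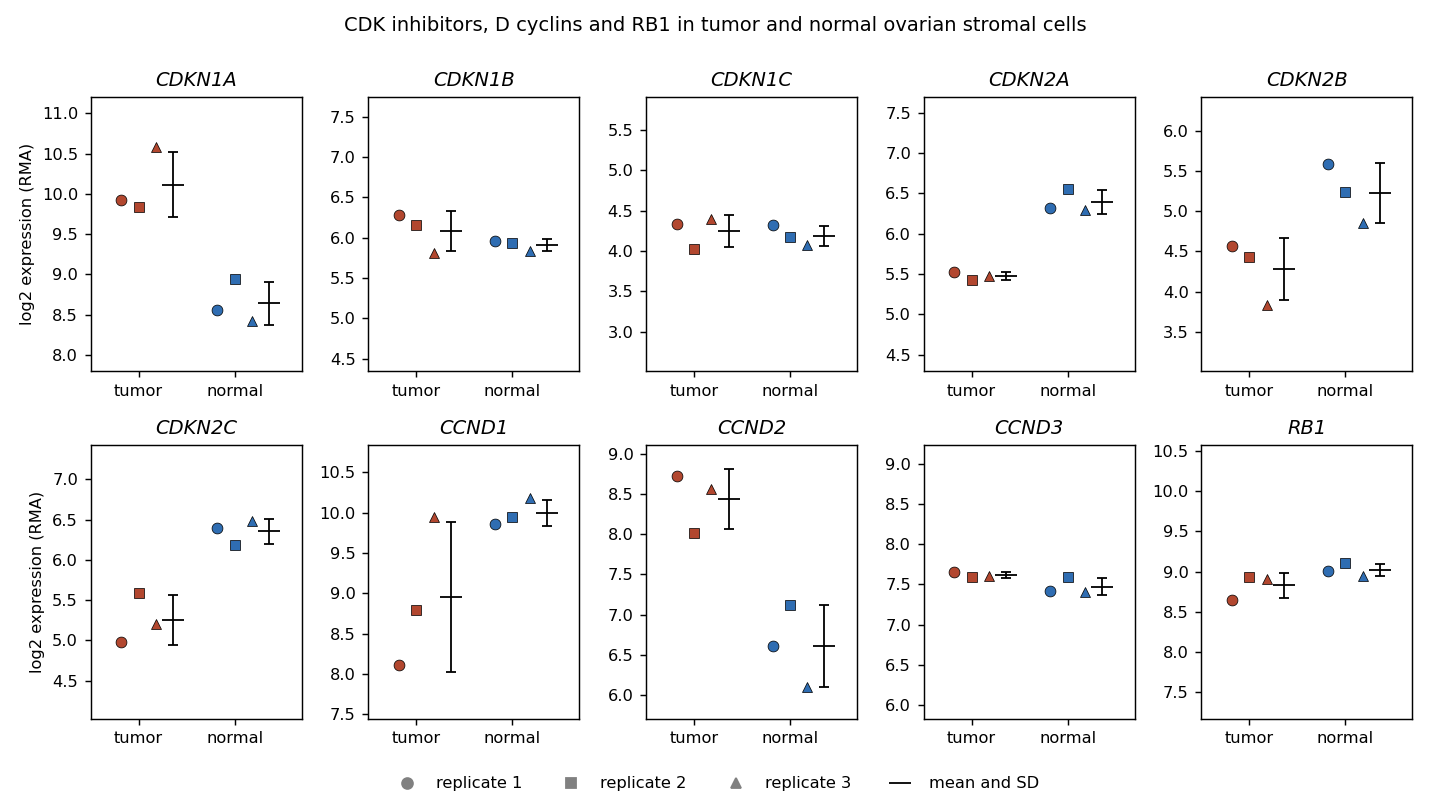
Log2 expression (RMA) of each of the 10 genes in 3 tumor and 3 normal samples, with replicates as separate symbols and mean and SD beside them; every panel spans an equal log2 range. CDKN1A and CCND2 lie higher and CDKN2A, CDKN2B and CDKN2C lower in all 3 tumor samples, and CCND1 spreads from 8.11 to 9.95 within the tumor group.

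Of the CIP/KIP inhibitors, only CDKN1A, which encodes p21, passed the test. Its log2 levels were 9.92, 9.84 and 10.58 in tumor samples 1 to 3, against 8.56, 8.94 and 8.42 in normal samples 1 to 3. The groups did not overlap, with 0.90 between the lowest tumor and the highest normal sample, and tumor 3 stood highest. The log2 difference was 1.47 ± 0.22 (SE, n = 3 each, adjusted p = 0.00453), and the fold had a 95% interval of 1.94 to 3.98. Only 3.09% of all genes differed more in either direction. With any 1 sample left out, CDKN1A kept its call, with log2 differences from 1.24 to 1.62.

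CDKN1B, which encodes p27, an inhibitor controlled in large part through its breakdown, had log2 levels of 6.28, 6.16 and 5.81 in tumor samples and 5.96, 5.94 and 5.83 in normal samples. Tumor 3 was the lowest of all 6, so the groups overlapped. The log2 difference was 0.17 ± 0.14 (SE), with a 95% interval of -0.16 to 0.51 (adjusted p = 0.489, limma, n = 3 each). CDKN1C, which encodes p57 and is an imprinted gene in other mammals such as mouse, stood at 4.33, 4.02 and 4.40 in tumor and at 4.32, 4.17 and 4.07 in normal samples. The samples of the groups were mixed in order. CDKN1C differed by 0.06 ± 0.14 (95% interval -0.26 to 0.39, adjusted p = 0.82). For both genes the interval excluded a 2-fold difference of the array values in either direction. CDKN1C lay close above the background guide of 3.54, so for this gene the interval may not hold for the RNA itself.

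The 3 INK4 genes of the set were all lower in tumor cells. CDKN2A encodes both p16INK4a and, from another reading frame, the protein ARF, and which of these transcripts the probe set read is not given in the sources used here. Its log2 levels were 5.52, 5.43 and 5.48 in tumor samples, against 6.32, 6.56 and 6.29 in normal samples. The tumor samples lay within 0.09 of each other, and 92.5% of all genes had a larger SD among tumor samples. The log2 difference was -0.91 ± 0.12 (SE, n = 3 each, adjusted p = 0.00233, limma), with a 95% interval of -1.19 to -0.64. The call held with any 1 sample left out, at adjusted p of 0.0051 to 0.0139.

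CDKN2B encodes p15INK4b, an inhibitor that transforming growth factor beta is known to induce, and is the direct neighbour of CDKN2A among protein-coding genes in the RefSeq annotation of assembly ARS-UCD2.0. It stood at 4.57, 4.43 and 3.84 in tumor and at 5.59, 5.24 and 4.85 in normal samples. The groups did not overlap, but only 0.28 separated the highest tumor sample from the lowest normal one. The log2 difference was -0.95 ± 0.24 (SE, n = 3 each, adjusted p = 0.0323, limma). This call was lost without tumor replicate 2, tumor replicate 3, normal replicate 1 or normal replicate 2 (adjusted p = 0.0703, 0.0791, 0.0733 and 0.0982), with the tumor level lower in every fit.

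CDKN2C, which encodes p18INK4c, had log2 levels of 4.98, 5.59 and 5.20 in tumor samples, against 6.40, 6.18 and 6.48 in normal samples. All 3 tumor samples were at least 0.59 below all 3 normal ones. The difference of -1.10 ± 0.17 (SE, n = 3 each, adjusted p = 0.00531, limma) was called with any 1 sample left out (adjusted p of 0.00569 to 0.0209). CDKN2D, the remaining INK4 gene and not one of the 10, lay on the other side, with a difference of 0.31 ± 0.17 that was not called (adjusted p = 0.29). The neighbours CDKN2A and CDKN2B thus differed by similar amounts between the groups in array values, but they were not alike within them. Among tumor samples CDKN2B, with levels close above the background guide, ranged over 0.73 and CDKN2A over 0.09.

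The D cyclins did not move alike. CCND2 had log2 levels of 8.72, 8.01 and 8.56 in tumor samples, against 6.61, 7.12 and 6.10 in normal samples. Every tumor sample was at least 0.89 above every normal sample, and the normal samples were spread over 1.02. The log2 difference of 1.82 ± 0.28 (SE, n = 3 each, adjusted p = 0.00464, limma) had a 95% interval of 1.18 to 2.46, and 1.9% of all genes differed more. Leaving out any 1 sample gave log2 differences from 1.56 to 2.08, all called. With array weights, which let samples count unequally, it was 1.37.

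CCND1 is the D cyclin best known as a growth factor target in fibroblasts. Its log2 levels were 8.11, 8.79 and 9.95 in tumor samples, against 9.86, 9.95 and 10.18 in normal samples. Tumor samples 1 and 2 were below all normal samples, but tumor 3 equalled normal 2. The SD was 0.93 among tumor samples and 0.17 among normal samples, and only 0.305% of all genes had a larger SD in tumor. The log2 difference was -1.05 ± 0.40 (SE, 95% interval -1.98 to -0.12) and was not called over all genes (adjusted p = 0.118, limma). Without tumor replicate 3 it was -1.55 and called (adjusted p = 0.00809), without tumor replicate 1 it was -0.63 (adjusted p = 0.277), and with array weights it was called at -1.03 (adjusted p = 0.0424). The value for CCND1 thus rested on which tumor sample was counted.

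CCND3 was the steadiest of the D cyclins. It stood at 7.66, 7.59 and 7.60 in tumor samples and at 7.42, 7.59 and 7.41 in normal samples. The lowest tumor sample equalled the highest normal one, and the log2 difference of 0.14 ± 0.11 (SE, 95% interval -0.11 to 0.40) was not called (adjusted p = 0.443, limma, n = 3 each). RB1, the pocket protein that the kinases of D cyclins phosphorylate, had log2 levels of 8.65, 8.93 and 8.91 in tumor samples, against 9.01, 9.10 and 8.95 in normal samples. Its groups did not overlap, but only by a gap of 0.02. The log2 difference of -0.19 ± 0.12 (SE, 95% interval -0.47 to 0.09) was not called (adjusted p = 0.356). The plot of differences with their intervals sets these genes beside their partners.

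**Figure D2:**
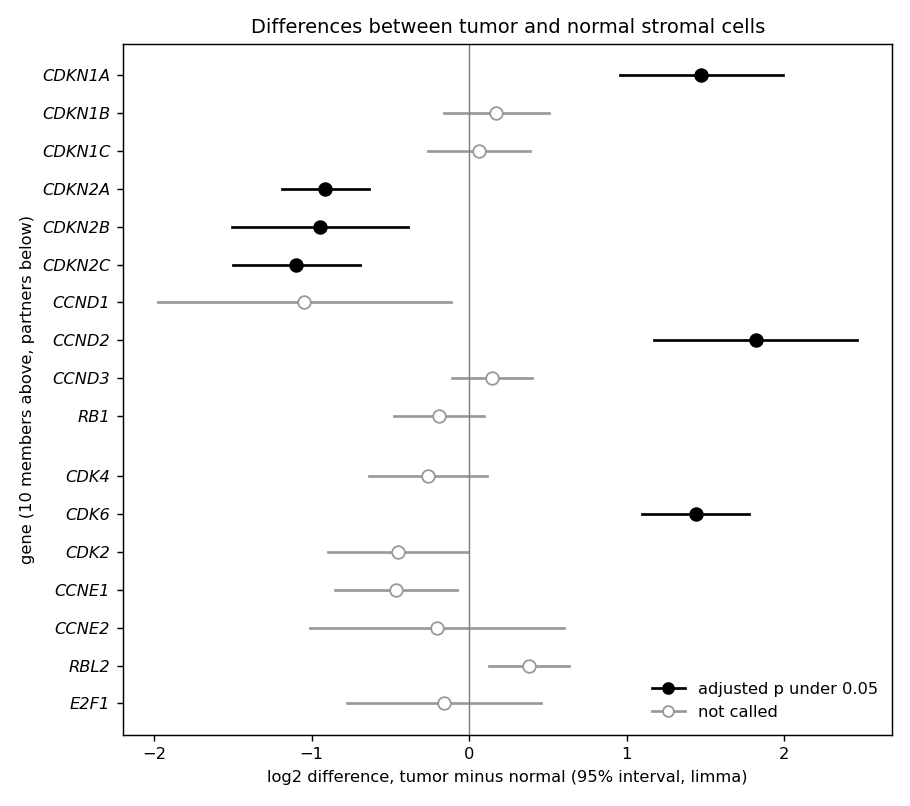
Log2 difference, tumor minus normal, with 95% intervals from limma for the 10 genes and for 7 partners; filled points have an adjusted p under 0.05. CCND2, CDKN1A and CDK6 lie between 1.44 and 1.82, CDKN2A, CDKN2B and CDKN2C between -1.10 and -0.91, and CCND1 has the widest interval of the 10 genes.

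Of the kinases that D cyclins activate, CDK6 was higher in tumor cells. Its log2 levels were 8.85, 9.15 and 9.34 in tumor samples, against 7.76, 7.59 and 7.68 in normal samples. The groups stood far apart for the spread within them, and the log2 difference of 1.44 ± 0.15 (SE, n = 3 each, adjusted p = 0.000855, limma) was called in every alternative fit. CDK4 stood at 8.25, 8.24 and 8.31 in tumor and at 8.32, 8.39 and 8.88 in normal samples, and differed by -0.26 ± 0.16 (adjusted p = 0.327). CDK2, the kinase of the E cyclins, differed by -0.45 ± 0.19 (adjusted p = 0.156). The E cyclin CCNE1 differed by -0.46 ± 0.17 (adjusted p = 0.0995), and CCNE2, which drives the same step, by -0.21 ± 0.35 (adjusted p = 0.757). Of the list of 10 G1 kinases, E cyclins and associated genes, which includes CDKN2D, CDK6 alone was called, where 18% of all genes were called.

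Beyond RB1, 10 of 12 listed pocket proteins, E2F and DP factors were measured, of which 1 rose and 2 fell, against 8.56% and 9.44% of all genes. E2F8, a repressor whose gene is itself an E2F target, fell by 1.79 on the log2 scale (adjusted p = 0.0159), and E2F4, which works with the pocket proteins as a repressor in resting cells, fell by 0.74 (adjusted p = 0.014). TFDP2, a dimerization partner of E2F proteins, rose by 0.54 ± 0.14 (adjusted p = 0.0312), a call lost without any 1 sample but normal replicate 1 (adjusted p = 0.0639 to 0.114). E2F1 differed by -0.16 ± 0.27 (adjusted p = 0.753). The pocket protein RBL2, known as p130, differed by 0.38 ± 0.11 and stood just short of the threshold (adjusted p = 0.0501). It was called with quantile normalization (adjusted p = 0.0277) and in 5 other alternative fits. RBL2 was not called with the replicate block (0.0973) or with any 1 sample left out (0.0683 to 0.17).

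**Figure D3:**
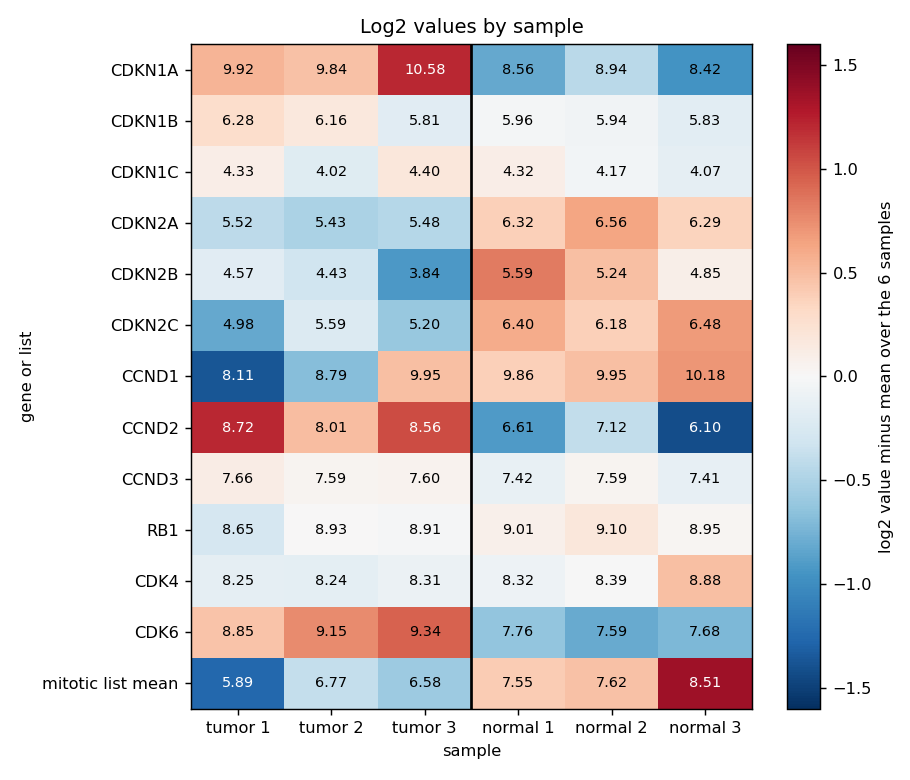
Log2 values (printed) of the 10 genes, CDK4, CDK6 and the mean of 18 mitotic genes in each sample, coloured by the difference from the mean over the 6 samples. Tumor 3 has the highest CDKN1A, the lowest CDKN2B and a CCND1 level equal to that of normal 2, and normal 3 has the highest mitotic mean.

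Nearly the whole list of mitotic genes was lower in tumor cells. Of 18 measured mitotic and proliferation genes 17 were called lower, against 9.44% of all genes. The list had a median log2 difference of -1.40 beside 0.02 over all genes. The centromere histone gene CENPA fell by 2.03, the kinetochore motor gene CENPE by 1.85 and CDC20, whose protein starts the exit from mitosis, by 1.84. Leaving out tumor replicate 1 left 9 of these calls, leaving out tumor replicate 3 left 10, and leaving out normal replicate 3 left 11. MKI67, the proliferation marker and the other gene of the list, differed by -1.20 ± 0.38 (adjusted p = 0.0655), and was called with array weights (0.0391) and without normal replicate 1 (0.0411). Means of this list were 5.89, 6.77 and 6.58 in tumor samples, against 7.55, 7.62 and 8.51 in normal samples. Between the groups these means were lower in tumor samples, as were CDKN2A, CDKN2B and CDKN2C, whereas CDKN1A and CCND2 were higher, and their part in those differences was not tested. Without normal replicate 3, the sample with the highest mitotic mean, the differences of CDKN1A, CCND2 and all 3 INK4 genes were still called. The mitotic means of normal 1 and normal 2, 7.55 and 7.62, still lay above all tumor means. This fit therefore cannot separate the differences of these genes from that of the mitotic list. CDKN2B lost its call in other fits with a sample left out, as given above.

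Of 9 measured cyclins and regulators of S, G2 and M phases, 5 were called lower, against 9.44% of all genes, with a median of -0.93. CCNB1, the mitotic cyclin, fell by 1.59 and the phosphatase gene CDC25C by 1.41. CDC25B and CCNB3 also fell, calls that were lost without tumor replicate 1 (adjusted p = 0.0975 and 0.0795) or tumor replicate 2 (0.0583 and 0.0653). That of CDC25B was also lost without tumor replicate 3 (0.0787), and that of CCNB3 without normal replicate 2 (0.061) or normal replicate 3 (0.0741). CCNA2, the cyclin of S phase, stood in tumor cells at 0.354 of its normal level, a call lost without tumor replicate 1, tumor replicate 3 or normal replicate 2 (adjusted p = 0.086, 0.0602 and 0.0549). Of the list, 2 were called without tumor replicate 1, and 3 without any of tumor replicate 2, tumor replicate 3 and normal replicate 2. MYBL2, which joins the MuvB complex to switch on mitotic genes, fell by 1.74 (adjusted p = 0.0147, limma). It was the called gene among 7 measured of that complex and its partners, where 18% of all genes were called. Without normal replicate 1, 3 of the 7 fell.

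Of 22 measured E2F targets of DNA replication, 1 was called lower in limma, against 9.44% of all genes, with a median of -0.45. It was MCM10, a replication factor, which fell by 1.03 (adjusted p = 0.0368), a call that held only without normal replicate 1 among the 6 fits with a sample left out (adjusted p = 0.0519 to 0.117 in the others). List means were 6.43, 7.05 and 6.85 in tumor samples, against 6.96, 6.94 and 7.93 in normal samples, so tumor 2 lay above and tumor 3 below both normal 1 and normal 2, and normal 3 stood apart.

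Of 20 measured transcription factors known to act on CDKN1A, CDKN1B or D cyclin genes, 5 rose and 1 fell, against 8.56% and 9.44% of all genes. KLF4, an activator of CDKN1A, had log2 levels of 6.41, 7.22 and 7.24 in tumor samples, against 4.74, 4.90 and 4.61 in normal samples. Its difference of 2.21 ± 0.23 (SE, adjusted p = 0.000886, limma, n = 3 each) was larger than that of any of the 10 genes. FOXO4, of a family that activates CDKN1B, rose by 1.37 ± 0.22, and LEF1, a Wnt effector that can act on CCND1, fell by 1.27. Tumor levels of LEF1 were 3.55, 3.74 and 3.21, near or under the background guide of 3.54, so the size of its fall is uncertain. The rest that rose were SMAD3, TCF7L2 and FOXO3, of which FOXO3 lost its call without tumor replicate 1, tumor replicate 2, normal replicate 1 or normal replicate 3 (adjusted p = 0.0594 to 0.106). MYC, known to repress CDKN1A and to favour CCND2, differed by 0.18 ± 0.15 (adjusted p = 0.484).

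**Figure D4:**
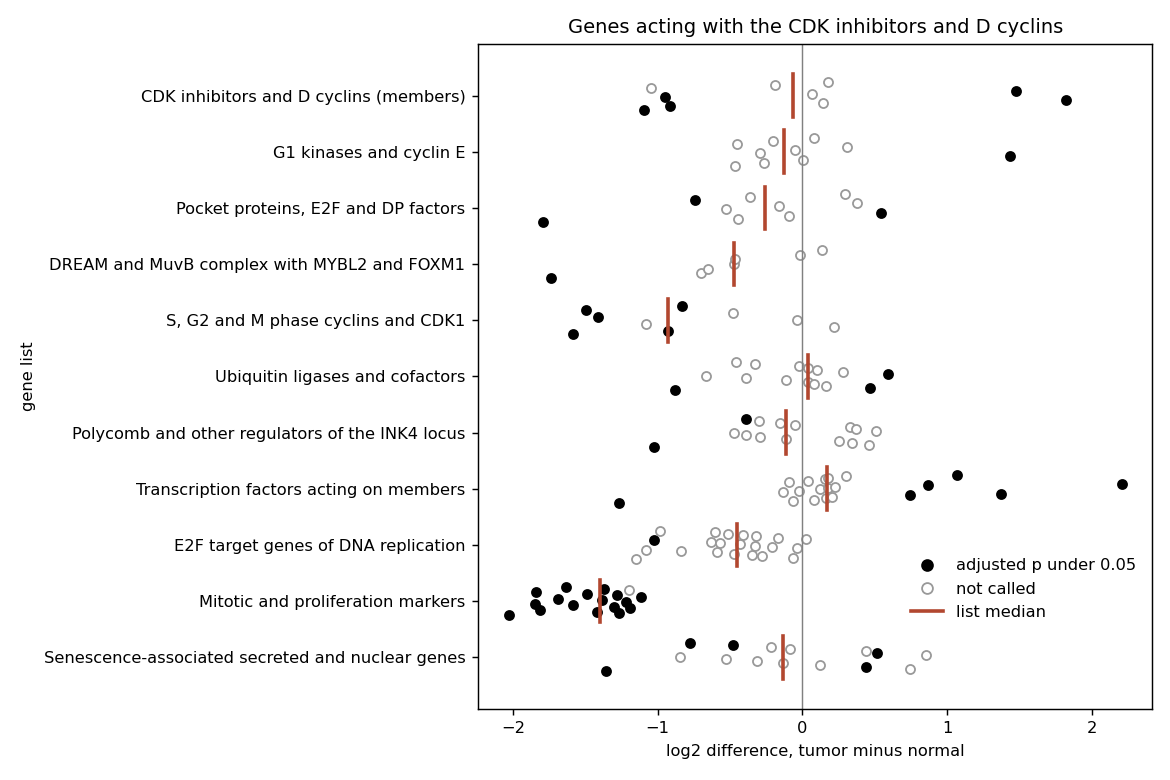
Log2 difference, tumor minus normal, of each measured gene in the list of 10 genes and in 10 lists of genes that act with them; filled points have an adjusted p under 0.05 and the bar is the list median. The mitotic list has a median of -1.40, and the 10 genes split into groups on both sides of 0.

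Among 15 measured ubiquitin ligase genes and cofactors that act on CDK inhibitors and D cyclins, 2 rose and 1 fell, where 18% of all genes were called in either direction. FBXW8, which takes part in the breakdown of cyclin D1, rose by 0.59 ± 0.11 (adjusted p = 0.0102). RNF123, a ligase for p27, rose by 0.47 ± 0.11 (adjusted p = 0.0264), a call lost without tumor replicate 1, tumor replicate 2, normal replicate 2 or normal replicate 3 (adjusted p = 0.0703 to 0.0976). CKS2, of the CKS family of CDK-binding proteins, fell by 0.88, a call lost with array weights, with the replicate block and in 4 of 6 fits with a sample left out (adjusted p = 0.0644 to 0.117). SKP2, the F-box protein that directs p27 to breakdown, differed by -0.46 ± 0.22 (adjusted p = 0.215).

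Of 15 Polycomb genes and other regulators of the INK4 locus, 2 were called, both lower, where 9.44% of all genes were called lower. EZH2, the methyltransferase of Polycomb complexes that repress CDKN2A, fell by 1.02 (adjusted p = 0.0437), and CBX8 fell by 0.39 (adjusted p = 0.0399). Both calls were weak: without tumor replicate 1, tumor replicate 2, tumor replicate 3 or normal replicate 2 neither held (adjusted p = 0.0662 to 0.147), and that of CBX8 was also lost in both other fits with a sample left out (0.0715 and 0.0556). Of 15 genes linked to cellular senescence, 2 rose and 3 fell, against 8.56% and 9.44% of all genes. LMNB1, a nuclear lamina gene, fell by 1.36, PLAUR, the urokinase receptor gene, fell by 0.78, and GLB1, a lysosomal galactosidase gene, rose by 0.52 ± 0.15. IGFBP7, an insulin-like growth factor binding protein gene, was the other that rose, and HMGA1, a chromatin protein gene, the other that fell; each kept its call in 1 of 6 fits with a sample left out. The calls of LMNB1, PLAUR and GLB1 were all lost without tumor replicate 1, tumor replicate 3 or normal replicate 2 (adjusted p = 0.0502 to 0.128), and those of PLAUR and GLB1 also without tumor replicate 2 (0.0803 and 0.14). PLAUR was not called without normal replicate 1 (0.0523) and GLB1 not without normal replicate 3 (0.114). The lists overlap in function with the 10 genes and were chosen with earlier results of these data known.

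For each called gene of the 10, the genes with the most similar pattern over the 6 samples were found by the root mean square (RMS) difference between values centred on each gene's mean. For CDKN1A these were LOC100298356 (RMS difference 0.17), USP20 (0.19) and PROZ (0.20). For CDKN2A they were AP1S1 (0.06), EMP3 (0.075) and CDC14A (0.079), and for CDKN2B they were CMTM3 (0.13), S100B (0.13) and GSN (0.15). CDKN2C lay closest to H2AZ1 (0.081), a histone variant gene, then CDCA7L (0.093) and TTF2 (0.11). CCND2 lay closest to IFIH1 (0.18), HOXB4 (0.22) and CRYBB1 (0.26). The measure mainly finds genes with an equal difference between the groups, since all share the same 6 samples.

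The cells carried fibroblast markers in both groups: VIM, COL1A1, COL1A2, DCN and LUM were at log2 levels of 11.64 or more in every sample. Of the 9 fibroblast markers 2 were called, against 18% of all genes. COL3A1 rose by 0.61 ± 0.14 and PDGFRA by 0.89 ± 0.20, and both calls were lost without tumor replicate 1 or tumor replicate 2 (adjusted p = 0.0708 to 0.0815, limma). THY1 differed by 1.35 ± 0.41, with groups that did not overlap (adjusted p = 0.0608). The list summed on the linear scale to 26560 to 28169 in tumor samples and to 23126 to 25601 in normal samples. Of 7 leukocyte, 6 endothelial and 7 epithelial markers measured, 1, 0 and 3 were called (limma), against 18% of all genes. None of the endothelial markers had an unadjusted p under 0.05. CD68, a macrophage marker, rose by 1.15 ± 0.17, and the leukocyte list summed on the linear scale to 162 to 195 in tumor samples and to 105 to 132 in normal samples, while 3 of the 7 (PTPRC, ITGAM and LYZ) lay under 3.54 in all samples. CD14 stood at 4.94 to 5.74, and CD3E and CSF1R lay between 3.36 and 4.10. The called epithelial genes were the keratins KRT8, KRT18 and KRT19, which fell by 1.06, 2.78 and 2.05, while EPCAM and MUC1 lay under 3.54 in all samples and CDH1 and KRT7 between 3.72 and 4.64. The call of KRT8 was lost in 5 of 6 fits with a sample left out (adjusted p = 0.08 to 0.135 in those). Summed on the linear scale, the epithelial list came to 93.2 to 99.95 in tumor samples and to 174 to 410 in normal samples. Of 6 pericyte and smooth muscle markers 2 rose (MYH11 and NOTCH3) and 2 fell (CSPG4 and DES). Of 5 granulosa markers FOXL2 fell, and of 4 theca markers CYP17A1 rose, where 8.56% of all genes were called higher and 9.44% lower. Of these, MYH11, NOTCH3, DES and CYP17A1 each lost the call without normal replicate 2 (adjusted p = 0.0549 to 0.0987, limma). MYH11 and CYP17A1 also lost it without tumor replicate 2, normal replicate 1 or normal replicate 3 (0.0643 to 0.0941). With the replicate block both were not called (0.0679 and 0.0541). NOTCH3 also lost its call without tumor replicate 2 (0.0605). The theca list had a median log2 difference of 1.26. Its linear sums were 156 to 690 in tumor samples and 107 to 140 in normal samples. Its log2 means were 6.065, 5.105 and 4.56 in tumor samples 1 to 3, against 3.92, 4.165 and 3.94 in normal samples. Linear sums were lower in tumor samples for the pericyte and smooth muscle list (1320 to 2547 against 3550 to 4041) and the granulosa list (50.7 to 60.6 against 65.9 to 73.6). The part of these marker shifts in the differences of the 10 genes was not tested. Medians of the 24415 probe sets lay between 4.45 and 4.55 in the 6 samples, and precision is limited by this small number of arrays.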

How the data were processed

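The authors deposited log2 expression values from RMA, a background correction, quantile normalization and probe summary named in the submitters' processing notes; its version is not given in the sources used here. RNA was labelled with biotin by a 3' amplification kit, per the labels' protocols, while the probe set identifiers resemble those of an array that reads whole transcripts, so which stretch of a transcript each value reflects is not known here. No scan date or slide was used here, and batches were therefore not examined.

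Of 24415 probe sets, 18457 had 1 gene symbol in the platform annotation, 688 had several and 5270 were unnamed here. Where a gene had several probe sets, the brightest on average over 6 samples stood for it, which gave 18010 genes. Samples were grouped by title, and the linear model of limma 3.58.1 (R 4.3.3), with moderated variances, two-sided p-values, no covariate and no filter, compared tumor with normal. Adjusted p-values are Benjamini-Hochberg over all genes, and calls need one under 0.05. Errors beside differences are standard errors, and intervals cover 95%.

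Named genes were the 10 genes, up to 3 called, non-overlapping genes of each pathway list with the largest difference, and genes fixed by name, of which RBL1 was not analysed here; 1 list and some genes are not reported here. Others, such as called list members, are named after their values were seen. The 10 genes and the lists were chosen with earlier results of these data known. On simulated data for the 18010 genes of this comparison, with 50 genes changed at each size, 4% of changes of 0.5 (log2) were recovered, 86% of those of 1, 98% of those of 2 and 100% of those of 3, and 12 calls were false.

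Other fits used quantile normalization or median centring, left out genes with a mean under 3.13 or under the olfactory receptor level, added a mean-variance trend, robust variance prior, array weights or replicate block, averaged all probe sets of a gene, adjusted over all probe sets, or dropped each sample in turn.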

Additional observations from a re-analysis of the deposited data

How the results depend on the processing

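The calls of CDKN1A, CDKN2A, CDKN2C and CCND2 held in all 16 alternative fits. The number of the 10 genes called was 5, against 6 with array weights (CCND1 added) and 4 to 5 with 1 sample left out. Over all genes the number called was 3242, with 1542 higher and 1700 lower. With array weights it was 5054 (2362 higher and 2692 lower), and with 1 sample left out it ran from 1765 to 3226, with 876 to 1451 higher and 889 to 1775 lower. The cause of these shifts was not tested, except that fits with a sample left out hold fewer samples. The direction of genes that were not called turned in few fits: CDKN1C was -0.012 without tumor replicate 3 (range with 1 sample left out up to 0.18), CCNE2 was 0.12 with array weights and 0.24 without normal replicate 3 (range from -0.43), and E2F1 was 0.039 with array weights and 0.175 without normal replicate 3 (range from -0.37). The cause was not tested. Same-numbered samples did not deviate together (correlations of deviations from the group means of 0.05, -0.077 and 0.073 for numbers 1 to 3). The rule set for pairing, a correlation over 0.1 for every number, was not met. With 3 samples per group, these correlations cannot show whether same-numbered samples share an animal or a batch. With the replicate block 2895 genes were called, 1345 higher and 1550 lower, and 5 of the 10 genes; MKI67 and CCNE1 were then called (adjusted p = 0.0218 and 0.0465).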

Other observations

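Beyond the 10 genes, the array held 19 genes whose symbols name a cyclin-dependent kinase and 23 that name a cyclin, a set taken by symbol after values had been seen. Of the kinases 4 were higher (CDK6, CDK8, CDK18 and CDK19) and 2 lower (CDK14 and CDK20) in tumor cells, and of the cyclins 2 were higher (CCNL1 and CCNG1) and 3 lower (CCNA2, CCNB1 and CCNB3). Over all genes 8.56% were higher and 9.44% lower. The calls of CDK18 (adjusted p = 0.0695 to 0.115), CDK14 (0.0757 to 0.113) and CCNG1 (0.0514 to 0.0756) were each lost in 5 of 6 fits with a sample left out, and that of CDK14 also with quantile normalization (0.0555). CCNB3 lost its call in 4 of 6 such fits. CDK8, a kinase of the Mediator complex that acts in transcription rather than in the cell cycle itself, had log2 levels between 9.89 and 10.20 in tumor samples and between 8.27 and 8.48 in normal samples. Its difference of 1.68 ± 0.13 (SE, adjusted p = 0.000247, limma, n = 3 each) was larger than that of CDK6. Its close relative CDK19 rose by 0.52 ± 0.12, but was not called without tumor replicate 1, tumor replicate 2, normal replicate 2 or normal replicate 3 (adjusted p = 0.0659 to 0.0973), while CCNC, the cyclin partner of both, differed by 0.14 ± 0.11 (adjusted p = 0.48).

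CCNL1, a cyclin associated with RNA splicing, stood at 7.94, 8.34 and 8.28 in tumor samples, against 6.88, 7.10 and 7.08 in normal samples, a rise of 1.17 ± 0.14 (adjusted p = 0.00183). CCNL2, its relative, differed by 0.11 ± 0.15 (adjusted p = 0.681). CDK20 fell by 0.59 (adjusted p = 0.0166), a call lost without tumor replicate 2 or normal replicate 2 (adjusted p = 0.0662 and 0.0696). The mitotic kinase gene CDK1 was not called, with log2 levels of 5.26, 6.31 and 6.28 in tumor samples and 6.01, 6.24 and 7.04 in normal samples (difference -0.48 ± 0.35, adjusted p = 0.414), although its partner CCNB1 fell by 1.59.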
